A study of Saccharomyces cerevisiae with 180 samples.

Results

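Ribosome biogenesis in Saccharomyces cerevisiae needs a large set of assembly factors, and 59 of their genes were followed here across a cross of a laboratory and a vineyard strain. The members were all genes on the arrays named UTP, NOP, RRP or NOC with a number, together with MPP10, IMP3, IMP4 and DBP3. They made up 59 of 5605 named genes, each had 1 probe, and they lie on 14 chromosomes. By their known roles, 30 act on the small ribosomal subunit, 15 on the large subunit and 3 on both. A further 3 are core proteins of the box C/D snoRNPs, 7 are subunits of the RNA exosome, and NOP13 was given no class.

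The samples were 90 haploid cultures, each compared with the same BY4716 reference pool on 2 arrays with the dyes exchanged, which gave 180 arrays. BY4716, a laboratory strain of the S288c background with mating type alpha and no LYS2, had 2 cultures. RM11, a haploid vineyard derivative with mating type a and without LEU2, URA3 and HO, had 2 cultures. The other 86 cultures were segregants, haploid progeny of BY4716 and RM11-1a. The pool was a separate culture of BY4716, so all values are log2 ratios of a culture to BY4716 RNA, read as base 2. A culture was the replicate, with the mean of its 2 arrays as its value, and growth conditions are not given in the labels.

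Ribosomes are built in the nucleolus, where RNA polymerase I makes a long precursor RNA that holds the ribosomal RNAs of both subunits apart from the smallest. Small-subunit factors, among them the UtpA, UtpB, UtpC and Mpp10 complexes and the U3 snoRNP, assemble on the nascent precursor into the small-subunit processome. Large-subunit factors such as the Noc and Nop7 complexes assemble on the remaining precursor, box C/D snoRNPs guide methylation of the RNA, and the exosome trims and degrades its parts. In yeast the genes for these factors are known as the Ribi regulon, whose transcript levels follow nutrients and growth.

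An array held from 3769 to 6570 probe values, with a median of 6288.5, and from 38 to 59 of the members. All 11 strain markers that could be compared, the mating-type and deleted genes, differed between RM11 and BY4716 in the direction that the genotypes require. Each array was scaled to its own mean, so a change in the members' share of the RNA and a change per cell cannot be told apart. Signal intensities were not used, so the number of arrays and cultures limits the precision. In 6 segregants the median log2 ratio of all genes of a chromosome lay between 0.665 and 0.827, whereas the medians of all other chromosomes and segregants lay between -0.149 and 0.129. Chromosome II was raised in the segregants 8-1-a, 10-1-c, 13-2-c and 15-5-b, chromosome XIII in 9-4-d, and chromosomes IV and IX in 14-6-d.

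Of the 59 members, 54 had values in at least 80 percent of the segregants and were used for co-variation. The other 5 were NOP13, RRP1, RRP17, UTP5 and UTP11, which had values of both arrays in 13, 65, 51, 68 and 16 segregants. For 3 of these the arrays of the 2 dyes went apart: the correlation between dyes over segregants was 0.15 for NOP13, a nucleolar RNA-binding protein, 0.15 for RRP1, a large-subunit factor, and 0.00 for UTP11, a processome protein. Among the 54 members the same correlation ran from 0.32 for RRP15 to 0.93 for UTP30, with a median of 0.80, against a median of 0.658 over all genes.

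The first question was how far the members rose and fell together over the segregants. They shared most of their variation. The mean Pearson correlation over the 1431 pairs of members was 0.627 (jackknife SE over segregants 0.0248, n = 86), the median was 0.699, and 76.1 percent of pairs exceeded 0.5. Over all pairs of 5007 genes the mean was 0.0074, and 3.09 percent exceeded 0.5. Pairs share cultures, arrays and the centring of each array, so these values are a description. The main axis of the members' correlation matrix held 66.9 percent of its variance and the next axis 4.64 percent.

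**Figure D1:**
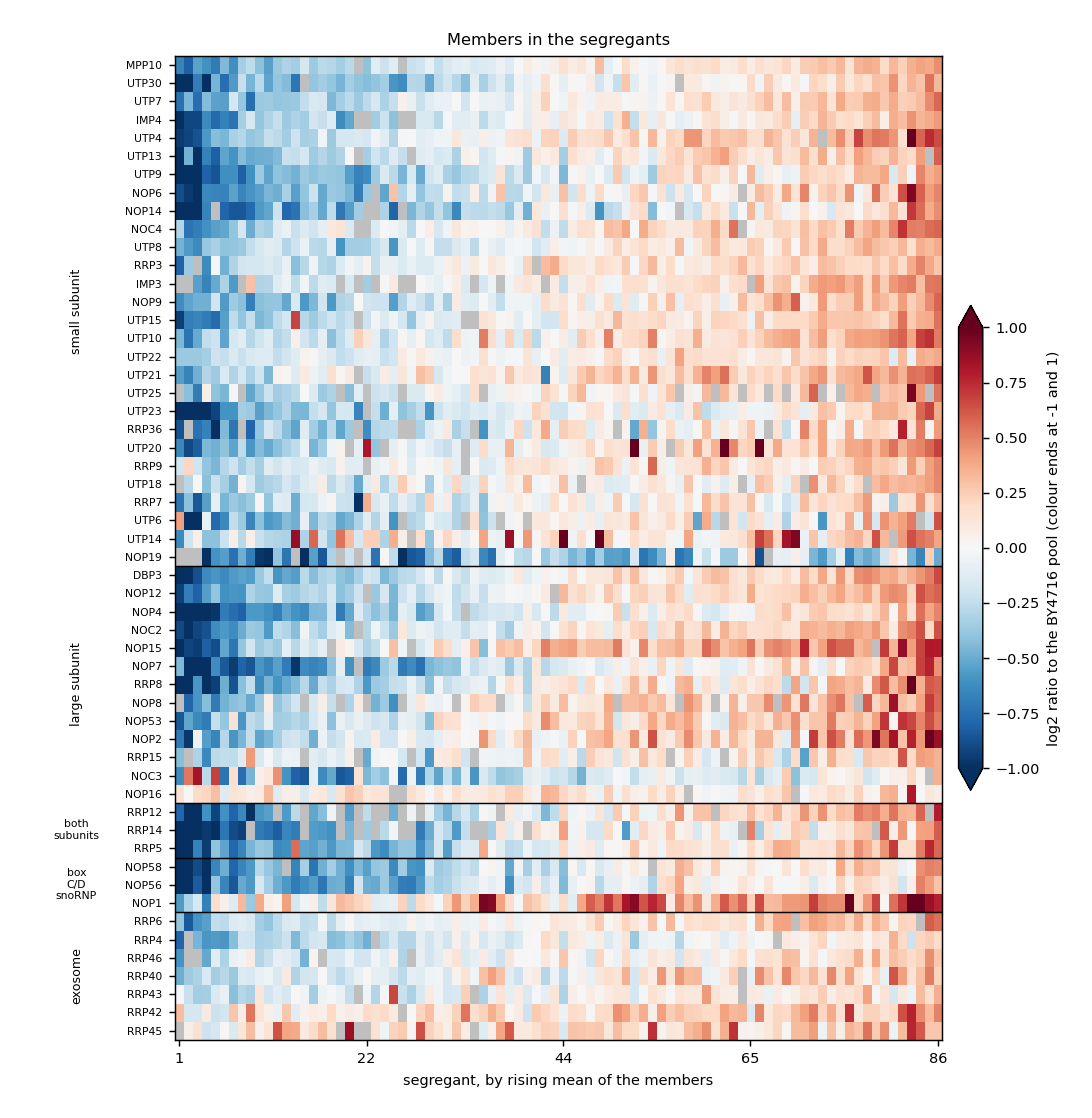
Log2 ratio to the BY4716 pool of the 54 members (rows, by class and then by falling mean correlation) in the 86 segregants (columns, by rising mean of the members), with missing values in grey. Most rows turn from blue to red from left to right, from a mean of -0.798 in 9-7-d to 0.473 in 4-3-d, while NOP16, NOC3, NOP19 and RRP45 do not follow that order closely.

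The mean of the 54 members ran from -0.798 in segregant 9-7-d to 0.473 in 4-3-d, with a median of 0.032 and an SD of 0.262. The segregant means of both dyes correlated at 0.963, so the order of the segregants was nearly the same on either set of arrays. In 9-7-d, 45 of 48 measured members were below the pool, among them RRP14, a factor of both subunits, at -1.983. In 4-3-d, 1 of 54 members was below the pool, which was NOP19 at -0.507. The segregants next to these ends were 9-2-d at -0.704 and 8-3-a at -0.628 on the low side, and 13-3-b at 0.460 and 7-8-d at 0.427 on the high side. Without the 6 segregants with a raised chromosome the mean pairwise correlation of the members was 0.637.

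The Mpp10 complex held the most closely linked members of any complex with over 2 members measured. Its scaffold MPP10 and the partners IMP3 and IMP4, which bind the U3 RNA, had a mean pairwise correlation of 0.892. MPP10 also had the highest mean correlation with all other members, 0.76. Its log2 ratio ran from -0.813 to 0.463 over the segregants, with a median of 0.009, which is a narrower range than that of most members. It followed the mean of the other members with a correlation of 0.951 and a slope of 1.04.

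The UtpA subunits, which bind the nascent precursor early, had a mean pairwise correlation of 0.792 over UTP4, UTP8, UTP9, UTP10 and UTP15. The UtpB subunits UTP6, UTP13, UTP18 and UTP21 were at 0.585, and UTP22, RRP7 and RRP36, grouped here as UtpC and its partner, at 0.665. In UtpB, UTP13 followed the other members most closely, with a mean correlation of 0.720, and UTP6 least closely, at 0.517. UTP6 ran from -1.033 in 8-3-a to 0.647, and its arrays of both dyes correlated at 0.522, lower than the 0.777 of UTP13. Amplitudes also differed within UtpA: UTP9 changed by 1.30 log2 units per unit of the mean of the other members, and UTP8 by 0.849.

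Among large-subunit members, the DEAD-box helicase gene DBP3 and the RNA-binding protein genes NOP12 and NOP4 had mean correlations of 0.753, 0.753 and 0.740 with the other members. DBP3 ran from -1.354 to 0.660 and NOP12 from -0.935 to 0.637. The 2 methyltransferase genes of the large rRNA, NOP2 and RRP8, correlated with each other at 0.883. UTP30, a non-essential processome gene at a mean correlation of 0.739, completed the 5 members that followed the others most closely.

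The closest pair of all was NOP56 with NOP58, at 0.947, which encode paired core proteins of the box C/D snoRNP. NOP1, the gene of fibrillarin, the methyltransferase of the same particle, was less alike: the lowest correlation within the class was 0.689. NOP58 ran from -1.412 to 0.506 with a median of -0.075. NOP1 was shifted upward, from -0.678 to 1.744 with a median of 0.319. The 3 factors of both subunits, RRP5, RRP12 and RRP14, had a mean pairwise correlation of 0.819, and the 7 exosome genes 0.434.

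The small- and large-subunit members were then set against each other. Pairs within the 28 small-subunit members had a mean correlation of 0.677 (SE 0.0273), pairs within the 13 large-subunit members 0.591 (SE 0.0326), and pairs across the classes 0.631 (SE 0.0234). The difference between the classes was 0.0857 (jackknife SE 0.0406). The 2 members of lowest mean correlation, NOP16 and NOC3, are both in the large class. Without these, chosen after the data were seen, the large-subunit pairs averaged 0.782, but the small class was not trimmed in the same way, so this value makes no comparison of the classes. Median correlations were 0.719 within the small class, 0.763 within the large class and 0.735 between them.

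**Figure D2:**
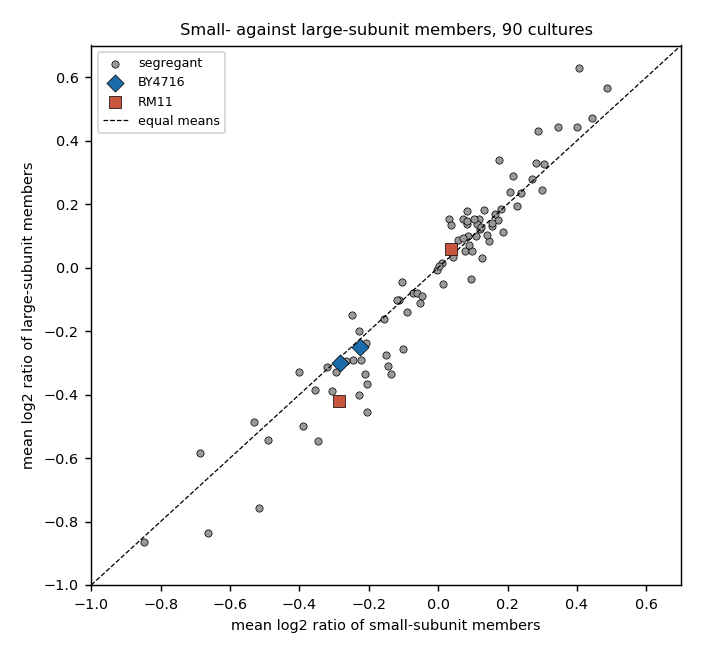
Mean log2 ratio to the BY4716 pool of large-subunit members (10 genes, vertical axis) against that of small-subunit members (21 genes, horizontal axis) in 90 cultures, over members measured in all 4 parental cultures. Points lie close to the line of equal means, BY4716 and RM11 culture 1 lie among the lower segregants, and RM11 culture 2 lies near the middle at 0.038 and 0.059.

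The class means moved almost as a single quantity over the segregants. The mean of the 28 small-subunit members and that of the 13 large-subunit members correlated at 0.968 (Spearman 0.953, n = 86), and at 0.967 without the 2 segregants farthest from the median. The large-subunit mean changed by 1.06 log2 units per unit of the small-subunit mean. Their difference, small minus large, had an SD of 0.0736, against an SD of 0.262 for the small-subunit mean itself. It ran from -0.241 in 8-7-b to 0.158 in 8-1-a, a segregant with raised chromosome II, which carries the small-subunit member UTP20. These ends rest on the members measured, which were 38 of 54 in 8-7-b and 45 in 8-1-a. Over the members measured in all 4 parental cultures, 8-7-b was at -0.097 and 8-1-a at 0.160, and the ends were 13-3-b at -0.224 and 9-4-d at 0.249. The difference correlated between dyes at 0.488, well below the 0.963 of the members' mean. In 8-7-b, RRP7, a UtpC gene, was the lowest of all segregants at -1.353, but its arrays of the 2 dyes gave -2.310 and -0.396.

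The exosome members moved with the others by a smaller amount. Their mean had an SD of 0.162 over the segregants and correlated at 0.915 with the mean of all 54 members, in which they are contained. RRP4, a cap subunit, and RRP6, the nuclear exonuclease, were closest to the rest, with mean correlations of 0.661 and 0.706. RRP45, RRP42 and RRP43, which belong to the ring, were at 0.219, 0.413 and 0.447. RRP46, also of the ring, was at 0.605, above the cap subunit RRP40 at 0.576, so the order did not follow ring and cap.

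Other genes of the pathway, from lists without the members, followed the same order of segregants. The mean of 52 other large-subunit factors correlated with the members' mean at 0.991, that of 41 other small-subunit factors at 0.985, that of 14 RNA polymerase I genes at 0.953 and that of 13 RNA polymerase III genes at 0.954. For 129 cytosolic ribosomal protein genes it was 0.794 (Spearman 0.776), and 0.741 without the 2 farthest segregants. For 33 genes of the general stress response it was -0.744 (Spearman -0.794). The 11 strain markers gave -0.018. All of these means share the same arrays and cultures, and members, lists and the other genes are centred together.

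The 8 other genes most like the members' mean were NAN1 at 0.952, RPA34, MRT4, LTV1, SYO1, NMD3, MAK21 and TSR1 at 0.935. NAN1 encodes a UtpA subunit, RPA34 a subunit of RNA polymerase I, and MAK21 the Noc complex protein Noc1. NMD3 and LTV1 act in the export of the large and small subunit. The 4 genes most opposed to the mean were SDS24 at -0.873, YPL247C at -0.869, IGD1 at -0.866 and HSP42, a small heat-shock protein gene, at -0.856.

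Whether the spread over the segregants exceeded that between repeat cultures of a parent was asked by an F test for 41 members with values on all parental arrays. The spread was larger in 16 of 41 members, at a Benjamini-Hochberg adjusted p under 0.05 over all genes tested. Over all 3193 genes tested, 58.4 percent passed. The median segregant SD of the members was 0.329 and their median error SD 0.138, against 0.251 and 0.0936 over all genes. Both quantities were thus higher in the members.

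By class, 11 of 21 small-subunit members and 3 of 10 large-subunit members passed. Of the rest, 1 of 3 snoRNP members, 1 of 2 factors of both subunits and 0 of 5 exosome members passed. At an unadjusted p under 0.05 in the F test, 2 of these 5 passed, against 2310 of all 3193 genes. The small-subunit members that passed were UTP4, UTP6, UTP9, UTP10, UTP13, UTP18, UTP23, UTP25, MPP10, NOP9 and RRP36. The others were DBP3, NOC3, NOP2, NOP56 and RRP12. RRP12, an export factor of both subunits, ran from -1.347 over a median of -0.023 to 0.789, with an SD of 0.437 against an error SD of 0.107 (moderated F test, adjusted p = 0.013).

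The widest spread was that of UTP23, a processome gene needed for release of the snR30 snoRNA, with an SD of 0.518 (adjusted p = 0.028). It came in part from 1 segregant: UTP23 was at -3.635 in 9-7-d, and the next lowest segregant was at -1.411. The 2 arrays of that culture gave -1.294 and -5.977, and the SD without it was 0.353. RRP14 had the next widest SD, 0.478, but lacked 1 array of BY4716 culture 2 and was not tested. Among the members tested, RRP12, described above, followed UTP23. NOP15, NOP7 and NOP14 came after it with SDs of 0.434, 0.432 and 0.413 and did not pass. The smallest SDs among the 41 were those of UTP22 at 0.179, RRP43 at 0.195 and RRP42 at 0.199.

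The counts of this test rest on the 4 parental cultures, whose error had 5.28 degrees of freedom after moderation. Leaving out 1 parental culture moved the count widely, over all genes as well as over the members, and the error then came from the other strain alone. Those counts are therefore no result about the members. The median segregant SD moved little, from 0.326 to 0.335 in the members and from 0.247 to 0.251 over all genes. Without the farthest segregant of each gene it was 0.312 in the members and 0.234 over all genes. Fewer members then passed, with no count over all genes shown. With values on at least 1 array per parental culture required instead, only NOC3 and RRP12 of the members that passed above still did.

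The parents were compared next, in 42 members with a value on all 8 parental arrays. In RM11, 2 members were higher and 1 lower at an adjusted p under 0.05 by limma, while 18.2 percent of all 3256 genes passed as higher and 8.54 percent as lower. The median difference, RM11 minus BY4716, was 0.194 over the members and 0.103 over all genes. It was positive in 32 of 42 members and in 2118 of all 3256 genes. The size and sign of this median depended on the RM11 culture: without culture 1 it was 0.365 (38 of 43 positive), and without culture 2 it was -0.0128 (21 of 44 positive). At an unadjusted p under 0.05 by limma, 7 of 42 members differed, against 1321 of all 3256 genes.

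**Figure D3:**
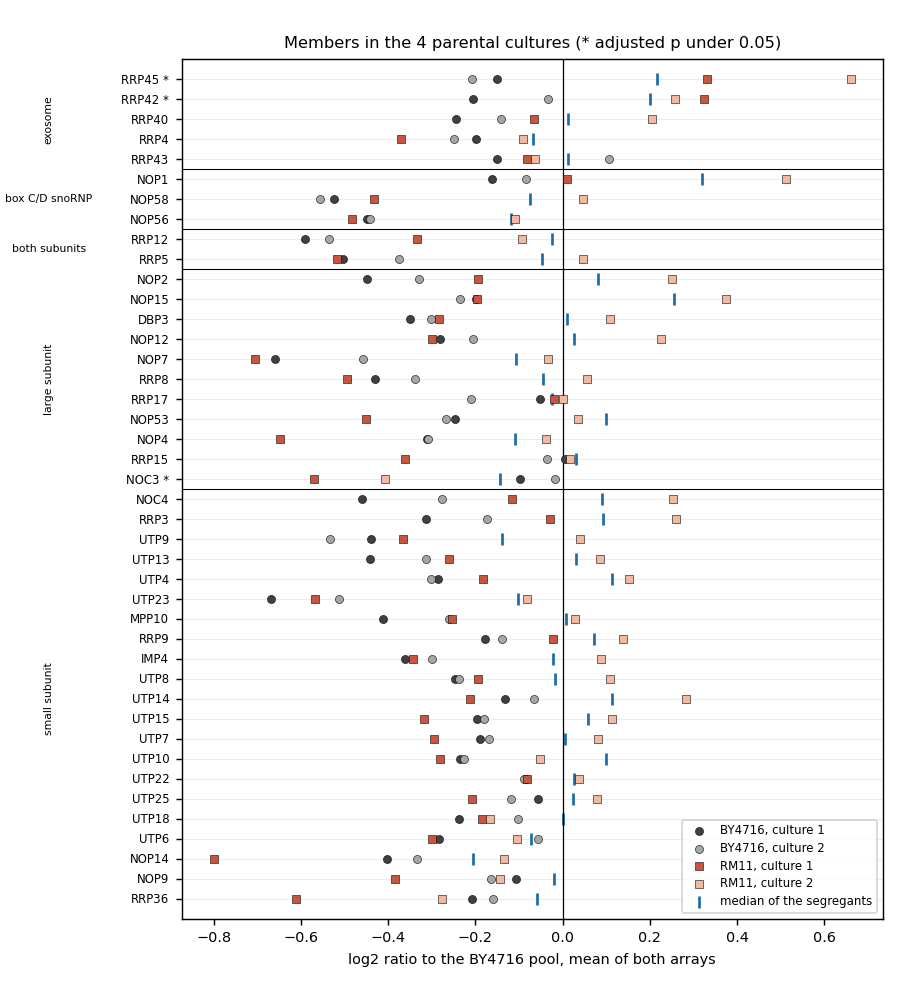
Log2 ratio to the BY4716 pool of 42 members in the 2 BY4716 cultures (circles) and the 2 RM11 cultures (squares), by class, with the median of the segregants as a bar. BY4716 lies left of 0 for nearly all members, RM11 culture 1 lies left of RM11 culture 2 in 41 of 42, and RRP45, RRP42 and NOC3 passed the test.

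RRP45, a ring subunit gene of the exosome, was at -0.150 and -0.209 in the BY4716 cultures and at 0.330 and 0.661 in the RM11 cultures. The strains did not overlap. The difference was 0.675 on the log2 scale (SE 0.128 from 2 cultures of each strain, limma adjusted p = 0.019). RRP42, another ring subunit gene, was at -0.206 and -0.032 in BY4716 and at 0.325 and 0.258 in RM11, a difference of 0.411 (SE 0.0950, limma adjusted p = 0.033). For RRP42 both RM11 cultures were close to each other, unlike for most members.

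NOC3, whose product acts both in large-subunit transport and in DNA replication, went the other way. It was at -0.098 and -0.016 in BY4716 and at -0.571 and -0.408 in RM11, again without overlap. RM11 was lower, with a log2 difference of -0.432 (SE 0.0942, limma adjusted p = 0.028). NOC2, the partner of Noc3 in the Noc complex, was at -0.423 and -0.176 in BY4716 and -0.112 and 0.195 in RM11. It had 1 missing array in BY4716 culture 2 and was not tested.

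Further members at the ends of the range did not pass. NOC4, the partner of Nop14 on the small subunit, was higher in RM11 by 0.437 (SE 0.148) and NOP2, the methyltransferase gene, by 0.418 (SE 0.160), with limma adjusted p of 0.086 and 0.115. RRP36 had a difference of -0.260 (SE 0.129) and RRP15 of -0.158 (SE 0.139), which was 0.031 without RM11 culture 1. The 2 RM11 cultures lay far apart for most members, which widened these errors: for NOP14, a scaffold of the processome, they gave -0.80 and -0.134.

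The members' mean in the parental cultures, over the 41 genes also measured in the segregants, was -0.296 and -0.237 in BY4716, -0.289 in RM11 culture 1 and 0.067 in RM11 culture 2. In 41 of 42 members and in 1819 of all 3256 genes RM11 culture 1 was below RM11 culture 2. The median difference was -0.358 in the members and -0.030 over all genes. The mean of 31 stress response genes was 0.976 in RM11 culture 1 and 0.546 in RM11 culture 2, and 0.428 and 0.406 in BY4716. The part of this difference between cultures in the strain comparison was not tested.

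The counts changed with the culture left out, over all genes as well as over the members. The error then came from the other strain alone, so these counts are no result about the members. Without BY4716 culture 1 the median difference was 0.149 over the members and 0.088 over all genes. Without BY4716 culture 2 it was 0.210 and 0.110. Without RM11 culture 1 or 2 the median over all genes was 0.122 or 0.054. After quantile normalization the median difference was 0.375 over the members and 0.053 over all genes, and UTP23, for example, went from 0.265 to 1.341. The counts of that setting, over members and over all genes, are given in the last section, and NOC3 did not pass there. The direction of RRP45, RRP42 and NOC3 was the same in each of these settings. None of them passed on the arrays of both dyes taken alone. On Cy3-titled arrays only NOC3 passed, and on Cy5-titled arrays RRP45, RRP42 and UTP14 passed.

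Every one of the 42 members was below the pool in the mean of the BY4716 cultures, although the pool is RNA of the same strain. Over all genes, 1676 of 3256 were below it. The median was -0.237, against -0.0046 over all genes. By limma no member passed an adjusted p under 0.05, nor did any other gene, so that 0 percent of the 3256 genes passed. At an unadjusted p under 0.05, 20 of 42 members and 616 of all genes differed from the pool. After quantile normalization genes passed both among the members and outside them, with counts given in the last section. That scaling also widened the values: the median became -0.411 over the members and 0.0030 over all genes. UTP23, for example, went from -0.591 to -1.647. The count also changed with the RM11 culture left out, whereas the medians hardly moved. Without RM11 culture 1 they were -0.231 over the members and -0.0035 over all genes, and without RM11 culture 2 -0.229 and -0.0011. As 1 RNA sample, the pool adds no spread of its own to this test.

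NOP58 was among the lowest members in BY4716, at -0.525 and -0.557. UTP23 was at -0.669 and -0.512, NOP7 at -0.659 and -0.458, and RRP12 at -0.590 and -0.537. Over the same cultures the stress response genes were above the pool, with means of 0.428 and 0.406 over 31 genes. The 118 ribosomal protein genes measured there had means of -0.167 and -0.170.

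The next comparison set the mean over segregants against the midpoint between the parents, where loci with additive effects on the log scale would place it. In 41 of 41 members and in 1559 of all 3193 genes it lay above the midpoint. The median distance was 0.162 in the members and -0.0038 over all genes. Without RM11 culture 1 the median distance was 0.0617 (40 of 42 above), and without RM11 culture 2 it was 0.257 (42 of 42 above). The distance passed in 3 members, RRP12, UTP10 and UTP18, and in none below. Over all 3193 genes 3.63 percent passed as above and 6.3 percent as below. The midpoints of all members come from the same 4 cultures, 3 of which had a members' mean below -0.23.

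RRP12 had a segregant mean of -0.064 and lay 0.324 above its midpoint (SE 0.0736, moderated test with limma's variances, adjusted p = 0.0084). UTP10, the large scaffold of UtpA, lay 0.277 above it (SE 0.0608, adjusted p = 0.020 by the same moderated test), and UTP18, a UtpB gene, 0.183 (SE 0.0501, adjusted p = 0.0496). The distances of UTP23 and NOP53, 0.295 (SE 0.104) and 0.292 (SE 0.0907), were as large as that of UTP10 but did not pass. The shortest distances were 0.046 for RRP43, 0.067 for RRP45 and 0.075 for UTP22. Those of RRP43 and RRP45 changed sign when a parental culture was left out.

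The count of members that passed also depended on single cultures, as did the count over all genes. Without BY4716 culture 1 the median distance was 0.149 over the members and -0.011 over all genes. Without BY4716 culture 2 it was 0.166 and 0.0016. After quantile normalization it was 0.292 and 0.016, and on the Cy3-titled arrays alone 0.117 and -0.0069. Counts in these settings are given in the last section.

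Members that departed from the common course were described over the segregants, with no test, since they were chosen by their mean correlation. The 5 lowest were NOP16, NOC3, RRP45, NOP19 and UTP14. Across the 54 members the mean correlation was itself related to the correlation between dyes (r = 0.702, a description), so that members whose arrays repeated poorly ranked lower. NOP19 and NOC3 stood apart from that relation, with correlations between dyes of 0.761 and 0.613. NOP16 and RRP45 were also low for their correlations between dyes of 0.333 and 0.473, at mean correlations of 0.088 and 0.219. RRP15 and RRP43, at 0.318 and 0.350 between dyes, had mean correlations of 0.481 and 0.447.

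**Figure D4:**
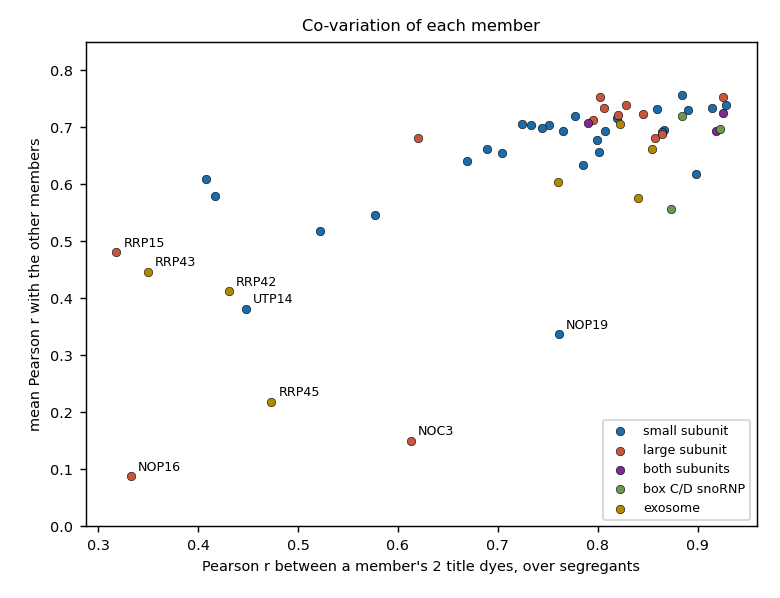
Mean Pearson correlation of each of 54 members with the other members (vertical axis) against the correlation between its 2 title dyes (horizontal axis), both over 86 segregants, coloured by class. Most members with a correlation between dyes above 0.6 have a mean correlation above 0.5, and NOP19 and NOC3 fall below them at 0.337 and 0.150.

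NOP16, a gene of early large-subunit precursors, hardly varied. It lay between -0.154 and 0.356 in all segregants but 14-6-d, where it was 0.80, and its mean correlation with the other members was 0.088, or 0.011 without that segregant. Its arrays of both dyes correlated at 0.333. NOP16 lies on chromosome V, which was not raised in 14-6-d. The 6 genes most like it, led by TRS23 at 0.809 and SYF1 at 0.693, all lie on chromosome IV, which was raised there. Without 14-6-d these 6 correlations fell to between 0.416 and 0.714.

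NOC3 ran from -0.846 to 0.823 with a median of -0.143. Its mean correlation was 0.150, and 0.240 without segregant 8-3-a, where its 2 arrays gave 0.199 and 1.447. Among the segregants with the lowest members' mean, NOC3 was high in some and low in others. In 8-3-a, where that mean was -0.628, NOC3 was at 0.823, and in 9-2-d it was at 0.530. In 9-7-d, where the mean was lowest, NOC3 was at -0.630, and its correlation with the mean of the other members was 0.174. Within the Noc complex, NOC2 and NOC3 correlated at 0.116. After a linear fit on the other members was removed, the remainder of NOC3 was most like CPA1 at 0.728 and ARG8 at 0.673, both genes of arginine synthesis. COG1, ASN2, ARG3 and TRP3 followed at 0.632 to 0.585, and ASN2, ARG3 and TRP3 are amino acid synthesis genes too.

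RRP45 ran from -0.210 to 0.858 with a median of 0.216, and 75 percent of segregants were above 0.066. It is thus a member that differed between the parents and followed the others little, with a mean correlation of 0.219. The genes most like its remainder were ATP17, COX9, QCR2, MIR1, ATP5 and QCR8, at 0.642 to 0.584. These encode subunits of the mitochondrial ATP synthase and of the respiratory chain, and the mitochondrial phosphate carrier Mir1. RRP45 lies on chromosome IV with ATP17, COX9 and ATP5, whereas QCR2, MIR1 and QCR8 lie elsewhere. Chromosome IV was raised in 14-6-d, where RRP45 was at 0.759, and the part of that segregant in these correlations was not tested.

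NOP19, a processome gene, was below the pool in most segregants, from -1.100 to 0.239 with a median of -0.438. It was also below the pool in the parents, at -0.724 and -0.350 in BY4716 and at -1.248 and -0.545 in RM11, with 1 array missing in 2 of these cultures. CPD1, a few reading frames away on the same arm of chromosome VII, was the gene most like it, at 0.744, and at 0.760 for its remainder. Its measured neighbours on the chromosome, RIE1 and GCN5, correlated with NOP19 at -0.398 and 0.110.

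UTP14, whose product activates the processome helicase Dhr1, had high values in a few segregants on top of the common course. It ran from -0.633 to 1.470 with a median of 0.114 and had a mean correlation of 0.382. In 9-6-d, its highest segregant, the 2 arrays gave 0.442 and 2.498, and the next highest value was 0.993. Its remainder was most like LEU1 at 0.687 and ILV2 at 0.684, both of branched-chain amino acid synthesis, and MET16 at 0.665. Without 9-6-d the correlations with LEU1, ILV2 and MET16 were 0.687, 0.628 and 0.607. RM11 and the segregants that inherit its allele lack LEU2, and the part of that deletion in UTP14 was not tested.

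**Figure D5:**
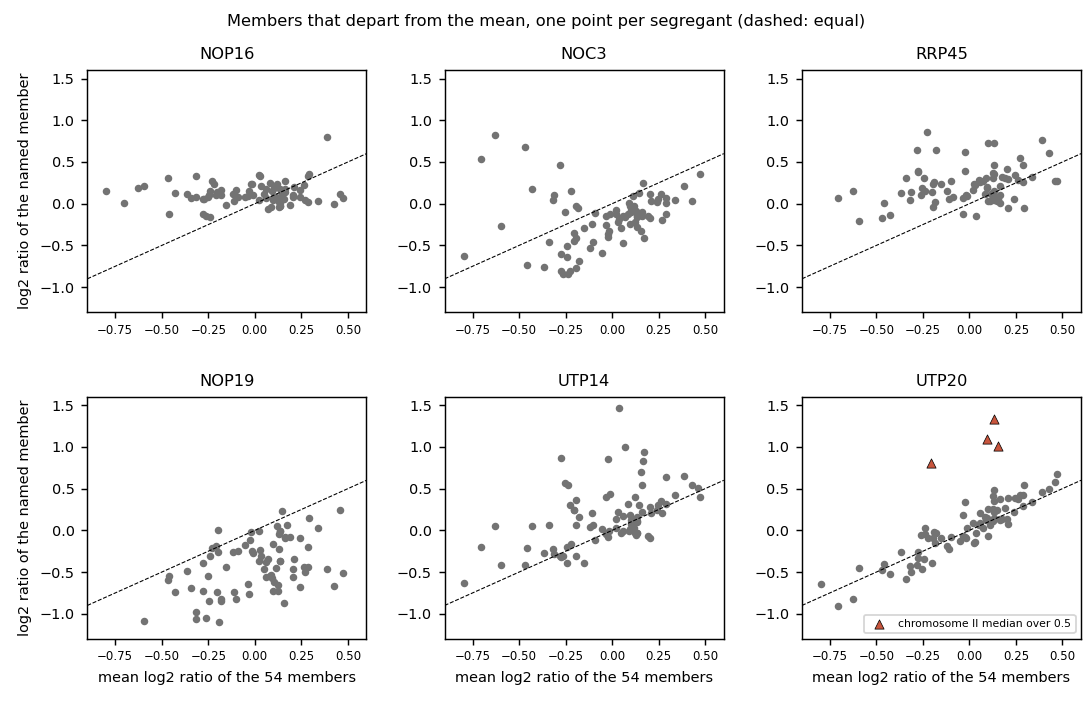
Log2 ratio of NOP16, NOC3, RRP45, NOP19, UTP14 and UTP20 (vertical axes) against the mean log2 ratio of the 54 members (horizontal axes) in the segregants, with a dashed line where both are equal. The 4 segregants with raised chromosome II (triangles) hold the 4 highest departures of UTP20, which otherwise follows the line.

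UTP20, the gene of a large helical-repeat protein of the processome, lies on chromosome II. In the 4 segregants with that chromosome raised it was between 0.805 and 1.340. These were its 4 largest departures from the mean of the other members. UTP20 correlated with that mean at 0.772 over all segregants and at 0.913 without these 4.

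Members on the other raised chromosomes were also high. In 9-4-d, where chromosome XIII was raised, RRP5 was at 0.557, UTP14 at 0.869 and UTP15 at 0.673, while the mean of all members was -0.274. In 14-6-d all 8 measured members on chromosome IV exceeded the mean of the others, with values from 0.520 to 1.744 and a median of 0.848, against a median of 0.240 for 45 members on chromosomes not raised. NOP1, RRP8, UTP4, NOP6 and NOP14 had their largest departure there. UTP25 on chromosome IX was at 0.939 in the same segregant.

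The remaining small-subunit members kept closer to the common course. UTP7, NOC4, RRP3, NOP9 and RRP9, the gene of the U3-specific snoRNP protein, had mean correlations of 0.735, 0.704, 0.695, 0.693 and 0.609. The processome scaffold NOP14 had a mean correlation of 0.704 and a wider range, from -1.432 to 0.704. The RNA-binding protein gene NOP6 was alike, from -0.993 to 0.928, with 0.705.

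Members that lacked a parental array could be described only with the arrays that were present, a setting chosen after the data were seen. RM11 minus BY4716 then ran from -0.360 for NOP19 to 0.45 for RRP1 among the 16 members so added, and none of the 16 passed (limma adjusted p of 0.093 for RRP1). UTP20 lay 0.358 above its midpoint (adjusted p = 0.017 by the moderated test in this setting). Its segregant mean included the 4 segregants with raised chromosome II, and their part in this distance was not tested. RRP12 and UTP10 passed against the midpoint in this setting too, whereas UTP18 did not (adjusted p = 0.085 by the same moderated test). NOP13 had no value in BY4716 culture 1 or RM11 culture 2 and could not be compared.

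Position along the chromosome was otherwise described only by the genes next to each member. NOC4 and RRP15, on chromosome XVI, were the only members adjacent to each other among the genes measured, and they correlated at 0.514. NOP56 and its neighbour PWP1, another ribosome biogenesis gene, correlated at 0.874.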

How the data were processed

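The deposited table holds, per array, the authors' log2 ratios of a culture to the BY4716 pool, read as base 2 since natural logarithms would make the lowest value 78991-fold, beyond a 16-bit scanner's 65536. Per the file values, the authors turned both dye orientations the same way and centred each array at a mean of 0. Scanner, background correction and dye normalization are not given in the sources used here. Of 7085 probes, 5645 had 1 symbol, from the platform annotation updated through RefSeq R64. Members, classes and lists were chosen with earlier results of these data known.

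Culture means needed both arrays. R 4.3.3 and limma 3.58.1 gave the parental and pool comparisons, a one-sided F test of segregant variance and a two-sided test against the midpoint, with Benjamini-Hochberg adjustment over all genes. These steps were tested on simulated data. Labels say the parental cultures were independent, whereas segregants had 1 culture each. Members named were those called, the ends of each range (3, or 5 for SDs), the 5 highest and 5 lowest mean correlations and those with a correlation between dyes under 0.3, plus the 8 most and 4 least alike other genes. Members called in single segregants or at complex level were added after their values were seen. Alternatives changed the scaling (median centring or quantiles), the dye, the cultures, the filter, the error and the correlation measure. Leaving out segregants with a raised chromosome was chosen after seeing the data. No gene or promoter sequence was used here.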

Additional observations from a re-analysis of the deposited data

How the results depend on the processing

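No call made on a member with all cultures reversed in direction. Of values that did not pass with all cultures, leaving out each parental culture gave from -0.346 to 0.031 for the parental difference of RRP15, and from -0.016 to 0.149 and from -0.018 to 0.110 for the midpoint distances of RRP45 and RRP43. The members' median parental difference turned to -0.0128 without RM11 culture 2. Calls depended most on the 4 parental cultures. Leaving out each in turn gave from 199 to 1797 genes for the parental difference (members 0 to 31), from 0 to 1396 against the pool (members 0 to 36), from 139 to 3636 for segregant variance (members 0 to 42) and from 47 to 1545 for the midpoint (members 0 to 38). With all cultures these counts were 869, 0, 1865 and 317, and 3, 0, 16 and 3 for members. Without a culture, the error comes from the other strain alone. Quantile normalization gave 15 members between parents, all higher in RM11, 850 genes and 32 members against the pool, and 835 and 32 against the midpoint. Cy3-titled arrays alone gave 533 and 1 between parents and 631 and 2 for variance. For the midpoint they gave 0 members, with no count over all genes shown. Cy5-titled arrays alone gave 13 against the pool and 3403 and 34 for variance. Genes with a value on every array gave 219 and 0, 580 and 9, and 74 and 1, with fewer genes tested. A 1.5-fold minimum left 406 and 1, and the error between dye arrays gave 3100 and 41. Of alternatives chosen after seeing the data, values on at least 1 array per parental culture gave 5 of 57 members for variance. These were NOC3 and RRP12, which also passed in the main test, and RRP7, RRP17 and UTP20, which were not tested there. Leaving out the farthest segregant of each gene gave 8. For neither setting is a count over all genes shown, so these counts are no result about the members. The other causes were not tested. Centring on the median changed the split of higher to lower genes between parents from 591 and 278 to 473 and 323, and quantile normalization to 433 and 323. For the midpoint the split went from 116 and 201 to 166 and 162, and to 483 and 352.

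Culture numbers are shared by the parents but do not show pairing, since deviations of the 2 pairs correlated at 0.189 over all genes. With the replicate block, 830 genes and 5 members passed between parents.

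The mean pairwise correlation of members, of small-subunit and of large-subunit pairs and of pairs across them was 0.590, 0.644, 0.557 and 0.596 after quantile normalization. On Cy3-titled arrays it was 0.577, 0.624, 0.525 and 0.574, on Cy5-titled arrays 0.557, 0.592, 0.555 and 0.570, and with 1 gene by each dye 0.549, 0.590, 0.510 and 0.549. The 13 members with a value on every array gave 0.769, 0.804, 0.816 and 0.788. With the main component of all genes removed, which correlated with the members' mean at 0.876, it was 0.328, 0.373, 0.342 and 0.353. Without NOP16 and NOC3 it was 0.667 for members, 0.782 for large-subunit pairs and 0.725 across. Over the members named, 264 values kept their direction and side of the threshold, 37 crossed to pass and 98 no longer passed.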
